A study of Danio rerio with 24 samples.

Results

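The genes compared here came from 8 of the 24 RNA sequencing libraries of the study: larvae kept in constant darkness against larvae kept under a light-dark cycle, both exposed to the lower dose of perfluorohexane sulfonate (PFHxS). PFHxS belongs to the per- and polyfluoroalkyl substances, a class of long-lasting industrial chemicals. A gene entered the comparison when its deposited FPKM (fragments scaled to gene length and to the total of the library) was at least 0.5 in 4 of these 8 libraries, which 18389 of 32520 genes met. The first group, called darkness below, was wild-type zebrafish (Danio rerio) exposed to 0.0025 µM PFHxS with 0.1% dimethyl sulfoxide (DMSO) as solvent and kept in 24 h dark (4 libraries). The second, called the cycle below, was wild-type zebrafish with the same PFHxS and DMSO exposure under 14 h light and 10 h dark (4 libraries). Every fish was exposed from 0.75 to 120 hours post fertilisation (hpf), and whole animals were used. Dark and cycle larvae at 25 µM PFHxS, and dark and cycle larvae with DMSO alone, 4 libraries each, served to compare the photoperiod difference between doses. The photoperiods come from the sample titles, since the description of the treatment names darkness for every sample. How many larvae went into a library, from which clutches and at what clock time they were collected is not in the labels.

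The dark libraries carry the names of 1 library series and the cycle libraries those of another, so that photoperiod and library series cannot be told apart in any dark against cycle value. Nothing in the labels says that the 4 replicates came from separate clutches, so the p-values describe the spread among these 4 libraries only, and that spread may be technical. Dark libraries held 8871183 to 10472274 fragments counted over genes and cycle libraries held 10449830 to 18531494. Mitochondrially encoded transcripts took 5.37% ± 0.25 of fragments in darkness and 5.23% ± 0.11 under the cycle (SD, n = 4 each). Of 22 markers of larval tissues, 21 had a median of 12.5 FPKM or more over the 8 libraries. The exception was the fast muscle gene mylpfa, with a median of 0.0317 FPKM, while the fast myosin myhz1.3 averaged 206 ± 18 FPKM in darkness and 313 ± 12 FPKM under the cycle. The groups lay apart on the first principal component, which held 36.2% of the variance. On the second, with 17.6%, cycle replicate 3 (53.2) and dark replicate 4 (35.2) stood at one end and cycle replicate 2 (−44.2) at the other. Cycle replicate 3 was the lowest cycle library in several clock genes, and list counts that move without it by over 1.5 times and by 2 or more genes are given with and without it. List counts were not computed without any other library, so how they depend on those is not known.

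The circadian clock is a loop of transcription factors. CLOCK and BMAL proteins switch on period and cryptochrome genes, many of whose products block them, and the ROR and REV-ERB nuclear receptors act on the BMAL genes. The PAR bZIP factors carry the rhythm to metabolic and detoxification genes. In zebrafish most tissues hold clocks that respond to light directly, and a light-dark cycle aligns the clocks of single cells with each other and with the day. Light also switches on some zebrafish clock genes by itself, per2 among them. Retina, pineal gland, pigment cells, gut and liver all have outputs that vary over the day.

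In darkness, relative to the cycle, 3239 genes passed the threshold (limma, Benjamini-Hochberg adjusted p under 0.05), which is 17.6% of the genes tested. Of these, 1686 were higher (9.17%) and 1553 lower (8.45%), and the median log2 difference over all genes tested was 0.00257. At least 2-fold differences made up 525 of the higher genes (2.85% of genes tested) and 476 of the lower ones (2.59%), while 1177 called genes differed by less than 1.5-fold. Differences of 10-fold or more were reached by 20 higher and 14 lower genes. For 4296 genes (23.4%) all libraries of one group lay above all of the other, 2167 with darkness above and 2129 with the cycle above. The period genes per1b, per3 and per1a and the cryptochrome cry2 were among the largest rises, and the cryptochrome cry3b was among the largest falls. All differences are on the scale of log2(FPKM + 0.1), darkness minus cycle, with the standard error (SE).

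**Figure D1:**
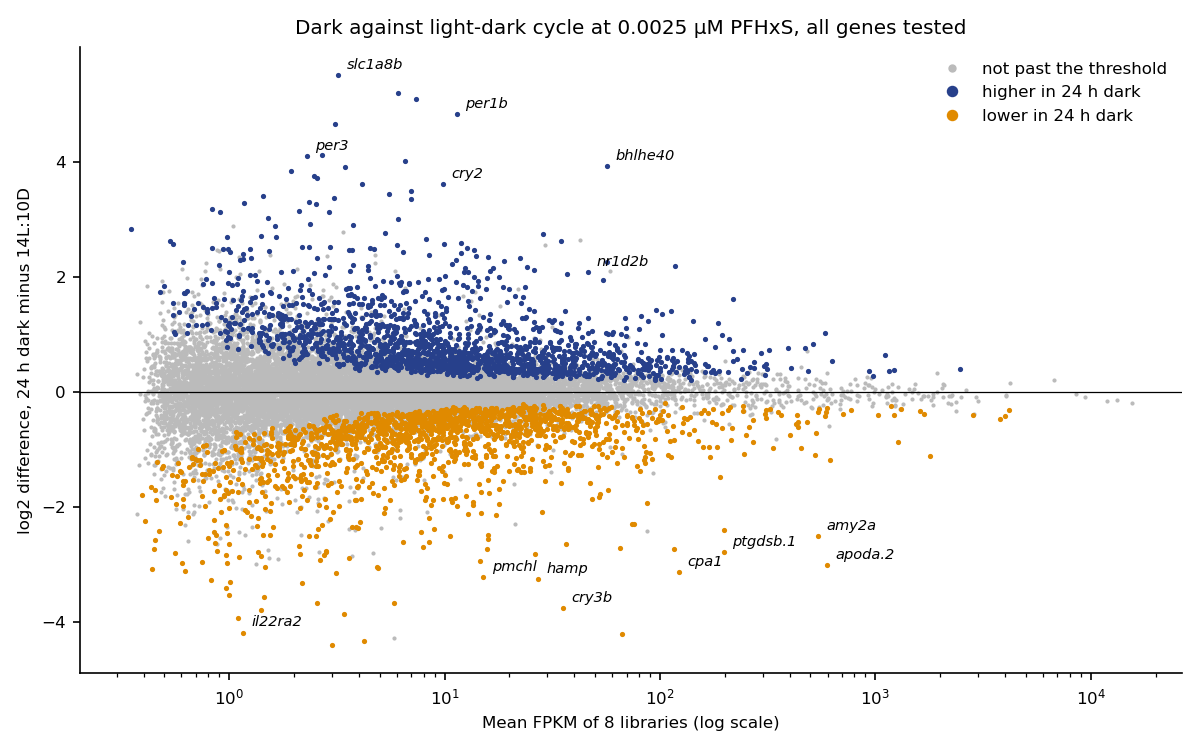
Log2 difference, darkness minus cycle, at 0.0025 µM PFHxS (vertical axis) against mean FPKM over 8 libraries (horizontal log axis), 1 point per gene tested. The 1686 genes higher in darkness are blue, the 1553 lower ones orange and the rest grey, with per1b at 4.82 and cry3b at −3.76 among the labelled genes.

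The period genes, which encode repressors of CLOCK and BMAL, differed in both directions. The gene per1b (chromosome 7, 50822465 to 50847296) had 21.2, 24.3, 22.9 and 20.2 FPKM in the dark libraries, against 0.676, 0.779, 0.642 and 0.648 in the cycle libraries. The groups did not overlap and the log2 difference was 4.82 ± 0.12 (adjusted p = 5.19e-08). Its paralog per1a (chromosome 10, 22809715 to 22831611) had 7.61, 7.66, 7.69 and 7.97 FPKM in darkness and 0.638, 0.558, 0.442 and 0.554 FPKM under the cycle, a difference of 3.604 ± 0.15 (adjusted p = 2.81e-06). The lowest dark library was more than 10-fold above the highest cycle library in both genes. For per3 (chromosome 11, 39959039 to 40021080) the libraries held 4.18, 4.46, 4.71 and 4.34 FPKM in the dark libraries, against 0.159, 0.2000, 0.0879 and 0.2397 in the cycle libraries, a difference of 4.09 ± 0.25 (adjusted p = 1.38e-05), or 2.21 with a pseudocount of 1. The light-inducible per2 (chromosome 2, 48309600 to 48375342) went the other way: it had 2.14, 1.84, 2.47 and 2.24 FPKM in darkness and 4.24, 6.18, 4.89 and 4.83 FPKM under the cycle. That was a difference of −1.17 ± 0.16 (adjusted p = 0.00128), again without overlap.

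Some cryptochromes also block CLOCK and BMAL, and the zebrafish has several copies. The copy cry2 had 15.1, 18.4, 19.6 and 19.6 FPKM in the dark libraries, against 1.22, 2.01, 0.789 and 1.88 in the cycle libraries, a log2 difference of 3.61 ± 0.26 (adjusted p = 3.81e-05). The copies cry1b (2.49 ± 0.16, adjusted p = 1.86e-05) and cry1a (1.05 ± 0.11, adjusted p = 3.78e-04) were higher in darkness too. The copy cry3b (chromosome 22, 786556 to 809282) was the clock gene with the largest fall: it had 4.49, 4.27, 5.55 and 4.99 FPKM in darkness and 63.3, 70.5, 64.5 and 66.2 FPKM under the cycle, a difference of −3.76 ± 0.09 (adjusted p = 5.19e-08). Its paralog cry3a had 4.97, 5.09, 4.83 and 4.26 FPKM in the dark libraries, against 20.3, 20.7, 8.26 and 13.3 in the cycle libraries, with cycle replicate 3 the lowest of its group and still above every dark library (−1.597 ± 0.26, adjusted p = 0.00358). The member cry4 was lower as well (−0.47 ± 0.10, adjusted p = 0.013), while cry5, a photolyase that repairs ultraviolet damage to DNA, did not pass (−1.005 ± 0.32, adjusted p = 0.0614), though it did with limma-voom (adjusted p = 0.0125) and with all 24 libraries in the fit (0.0237).

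The transcriptional repressor bhlhe40 (chromosome 11, 35759652 to 35763323), a bHLH protein that acts on the same DNA elements as CLOCK and BMAL, had 114, 102, 103 and 108 FPKM in the dark libraries, against 7.28, 6.64, 6.87 and 6.97 in the cycle libraries. The log2 difference was 3.93 ± 0.07 (adjusted p = 4.64e-09), the smallest p of all clock genes named here. Its relative bhlhe41 was higher by 1.66 ± 0.18 (adjusted p = 4.73e-04). The repressors ciarta and ciartb, known in mammals as CHRONO, were higher by 2.06 ± 0.16 (adjusted p = 5.87e-05) and 1.78 ± 0.17 (adjusted p = 2.01e-04), and cipca, whose mammalian counterpart binds CLOCK, by 4.11 ± 0.42 (adjusted p = 2.97e-04). Among the REV-ERB receptors, repressors of the BMAL genes, nr1d2b had 70.8, 76.9, 74.1 and 79.5 FPKM in darkness and 20.04, 18.4, 14.5 and 18.3 FPKM under the cycle (2.08 ± 0.10, adjusted p = 4.75e-06). The receptor gene nr1d1 had 137, 120.2, 123 and 107 FPKM in darkness and 67.7, 42.8, 39.3 and 63.5 FPKM under the cycle (1.23 ± 0.18, adjusted p = 0.0018). Both were higher in every dark library than in any cycle library. The receptors nr1d4a (−1.34 ± 0.11, adjusted p = 8.58e-05) and nr1d4b (−1.36 ± 0.24, adjusted p = 0.00481) were lower in darkness, and nr1d2a did not pass (−0.54 ± 0.29, adjusted p = 0.236) unless cycle replicate 3 was left out (−0.81, adjusted p = 0.0339). In all, 12 of 19 genes of the clock repressor list were higher in darkness, 6 lower and 1 did not pass, with a median log2 difference of 1.66. The list counts cry2 and cry4 as members, and whether each cryptochrome represses was not tested. A pseudocount of 1 put cipca at 2.297.

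The activating side of the clock also differed in both directions. The BMAL gene arntl1a had 14.2, 10.99, 14.4 and 14.3 FPKM in the dark libraries, against 21.9, 22.6, 25.99 and 21.9 in the cycle libraries, a log2 difference of −0.78 ± 0.11 (adjusted p = 0.00157), and arntl1b was lower too, at −1.18 ± 0.24 (adjusted p = 0.0098). The CLOCK gene clockb had 7.98, 7.12, 7.48 and 6.16 FPKM in darkness and 7.999, 10.9, 2.94 and 8.38 FPKM under the cycle and did not pass (0.07 ± 0.34, adjusted p = 0.923), with cycle replicate 3 far below the other cycle libraries. The gene clocka missed the expression rule, with 0.232 to 1.08 FPKM and only 3 libraries at 0.5 FPKM or more, and npas2 and arntl2 were listed at 0 in all 8 libraries. The ROR genes, activators of BMAL, were higher: rorab at 1.97 ± 0.32 (adjusted p = 0.00361), roraa at 0.55 ± 0.10 (adjusted p = 0.00492) and rorcb at 0.56 ± 0.14 (adjusted p = 0.0219). The casein kinases that phosphorylate period proteins gave 0.505 for csnk1db and 0.22 for csnk1da, both higher, and −0.44 for csnk1e, lower. Of 10 activator and kinase genes tested, 5 were higher and 3 lower, with a median of 0.14. The calls of rorcb, csnk1da and csnk1e were lost without single libraries, with highest adjusted p-values of 0.0602 to 0.114 (the largest without cycle replicate 1). With a pseudocount of 1 the log2 difference was smaller, with rorab at 0.86.

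The PAR bZIP output factors were higher in darkness for 4 of 8 genes tested and lower for none. The gene dbpa had 24.5, 23.9, 23.3 and 22.1 FPKM in the dark libraries, against 4.598, 5.01, 3.27 and 5.29 in the cycle libraries, a difference of 2.37 ± 0.14 (adjusted p = 1.38e-05), and dbpb gave 2.38 ± 0.16 (adjusted p = 2.27e-05). The 2 groups did not overlap for dbpa. The factors tefb (1.57 ± 0.24, adjusted p = 0.00266) and tefa (0.76 ± 0.11, adjusted p = 0.00188) followed in size. In the light-response and photorepair list 2 of 12 genes were higher and 3 lower. The lower genes were the CPD photolyase gene zgc_66475 (−0.76 ± 0.08, adjusted p = 4.16e-04), the DNA glycosylase neil1 (−0.81 ± 0.14, adjusted p = 0.00424) and hif1al (−0.400 ± 0.10, adjusted p = 0.0231). The higher ones were lonrf1l (1.16 ± 0.16, adjusted p = 0.00135) and the damage sensor xpc (0.56 ± 0.17, adjusted p = 0.0468). Single libraries decided the calls of hif1al and xpc, with highest adjusted p-values of 0.0677 to 0.115 (the largest without cycle replicate 4).

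**Figure D2:**
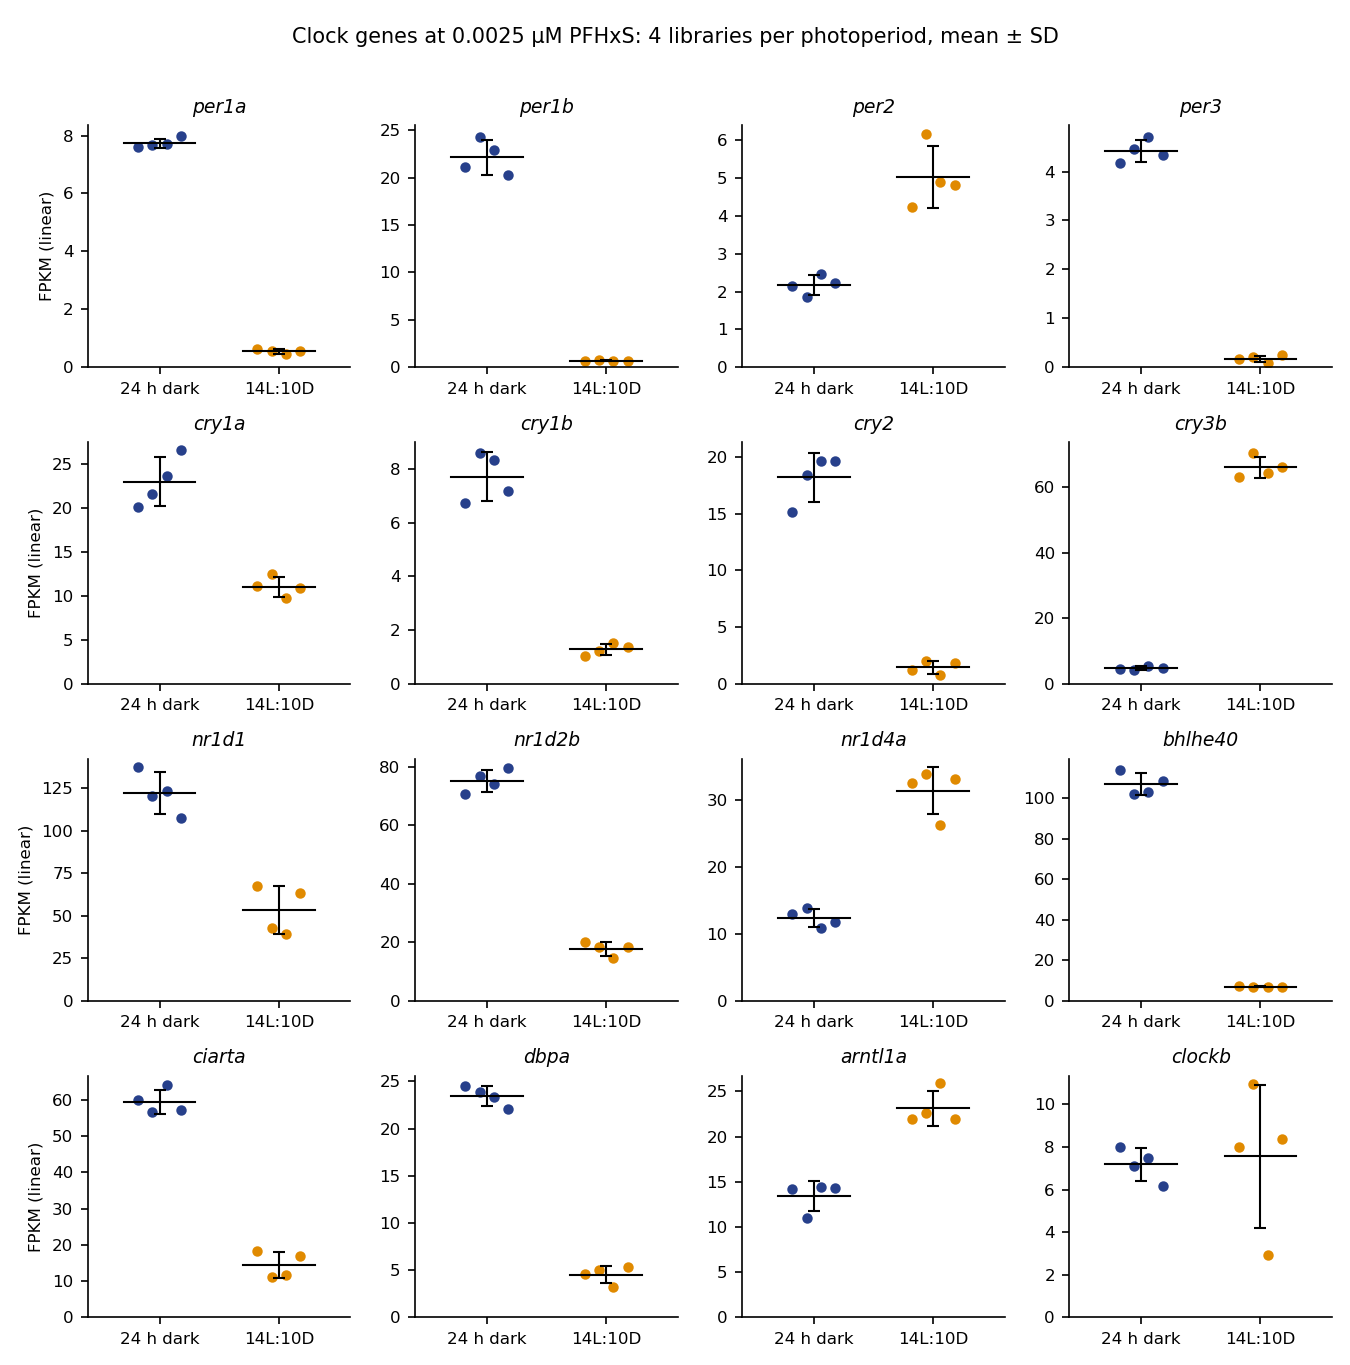
FPKM (vertical linear axes from 0) of 16 clock genes in the 4 dark and 4 cycle libraries at 0.0025 µM PFHxS. Points are libraries, the bar is the mean and the error bar the SD. The groups overlap for clockb and lie apart for the other 15, with per2, cry3b, nr1d4a and arntl1a lower in darkness and the rest higher. The genes shown were picked with their values known. Over all genes tested the groups did not overlap for 23.4%.

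Cycle replicate 3 differed from the other cycle libraries in several clock genes. It was the lowest cycle library for clockb at 2.94 FPKM, for nr1d4b at 30.01, for nr1d2a at 66.5, for cry3a at 8.26 and for tefb at 5.42. Without it, the repressor list had 12 genes higher and 7 lower, and the activator list had 5 higher and 2 lower. What set that library apart was not tested.

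In the pineal gland and retina, aanat2 encodes the enzyme that sets the rate of melatonin synthesis. It had 4.95, 5.57, 5.39 and 5.23 FPKM in the dark libraries, against 13.2, 12, 16.8 and 11.96 in the cycle libraries, a log2 difference of −1.32 ± 0.12 (adjusted p = 1.78e-04). The photoreceptor transcription factor crx, which acts in retina and pineal gland, was also lower (−0.595 ± 0.11, adjusted p = 0.00501). No other gene passed among the 12 pineal and melatonin genes tested, of 21 listed. The share called in this list was 16.7%, against 17.6% of all genes tested. In whole larvae a lower level can come from fewer cells of a type or from less RNA per cell, and these cannot be told apart.

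Genes of cone photoreceptors, the daylight cells of the retina, were mostly higher in darkness. Of 28 cone phototransduction genes 15 were higher and 3 lower (guca1g, cngb3.2 and arr3a), with a median of 0.59, and without cycle replicate 3 there were 11 and 2. The cone transducin gnat2 had 263, 284, 225 and 268 FPKM in the dark libraries, against 115, 103, 125 and 109 in the cycle libraries, a difference of 1.202 ± 0.09 (adjusted p = 5.19e-05). The inhibitory phosphodiesterase subunit pde6ha had 80.2, 83.1, 81.1 and 132 FPKM in darkness and 17.2, 21.7, 17.9 and 19.8 FPKM under the cycle (2.26 ± 0.16, adjusted p = 3.71e-05), and the opsin kinase grk7a, which helps shut off the light response, had 35.4, 37.7, 31.97 and 43.3 FPKM in darkness and 10.6, 10.1, 10.98 and 9.85 FPKM under the cycle (1.82 ± 0.10, adjusted p = 8.43e-06). The groups did not overlap in any of these genes. Calcium sensors of the guanylate cyclase split, with guca1c at 3.02 ± 0.37 (adjusted p = 7.80e-04) and guca1g at −1.87 ± 0.16 (adjusted p = 1.36e-04). The channel subunit cngb3.2 (−0.62) and the cone arrestin arr3a (−0.54) were lower by less. The summed level of the list was 1461 to 1783 FPKM in dark libraries and 901 to 1034 in cycle libraries. The call of arr3a was lost without dark replicate 3 (adjusted p = 0.115) and without 6 of the other libraries. Smaller differences were found with a pseudocount of 1, with guca1c at 1.55.

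Cone opsins, the light-absorbing proteins, also split. The blue opsin opn1sw2 (0.77 ± 0.10, adjusted p = 8.25e-04), the green opsin opn1mw1 (0.77 ± 0.11, adjusted p = 0.00193) and the ultraviolet opsin opn1sw1 (0.64 ± 0.10, adjusted p = 0.00255) were higher in darkness. The level of opn1sw1 was 1345 ± 153 FPKM in darkness and 863 ± 52 FPKM under the cycle (SD, n = 4 each). A second green opsin, opn1mw2, had 7.31, 10.1, 12.2 and 8.69 FPKM in the dark libraries, against 29.2, 27.7, 26.8 and 27 in the cycle libraries and was lower, at −1.55 ± 0.14 (adjusted p = 1.70e-04). The green opsins, like the red ones, lie in tandem copies among which fragments may have been divided in counting. The red opsin opn1lw2 had 169, 225, 243 and 108 FPKM in darkness and 227, 63.7, 189 and 242 FPKM under the cycle, a wide spread in both groups, and did not pass (0.15 ± 0.42, adjusted p = 0.851). The rod opsin rho did not pass either (0.08 ± 0.17, adjusted p = 0.804), and 2 of 24 rod genes were higher and 2 lower, shares near those of all genes. The higher ones were the arrestin sagb (1.28 ± 0.14, adjusted p = 4.06e-04) and prph2a (0.24), and the lower ones the channel subunit cnga1a (−0.75) and pde6gb (−0.51). The calls of prph2a, cnga1a and pde6gb were lost without single libraries, with highest adjusted p-values of 0.089 to 0.122 (the largest without cycle replicate 4).

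The visual cycle regenerates the chromophore of opsins, partly in the retinal pigment epithelium. Of its 25 genes tested, 4 were higher and 7 lower, and without cycle replicate 3 there were 4 of each. The retinal isomerase rpe65a was lower, with 39.3, 58.6, 73.6 and 59.8 FPKM in darkness and 94.4, 86.7, 130.2 and 92.9 FPKM under the cycle (−0.82 ± 0.19, adjusted p = 0.0169), as was the plasma retinol carrier rbp4 (−0.72 ± 0.12, adjusted p = 0.00348). The carotenoid cleavage genes bco1 and bco1l were higher, by 0.88 ± 0.11 (adjusted p = 7.66e-04) and 1.87 ± 0.22 (adjusted p = 6.85e-04), and so were the retinol dehydrogenases rdh10a (0.93 ± 0.09, adjusted p = 2.81e-04) and rdh8b (0.91 ± 0.14, adjusted p = 0.00269). Of 16 non-visual opsins, 4 were lower, namely rrh (−1.02), rgra (−0.67), rgrb (−0.51) and opn6b (−1.0), and 1 was higher, opn9 (0.66), against 2 lower and none higher without cycle replicate 3. Lens genes had 6 of 57 higher and 1 lower, with the crystallin crygm2d1 at 0.73 ± 0.12 (adjusted p = 0.00394) (adjusted p = 0.0647 with all 24 libraries in the fit), the membrane protein lim2.1 at 1.97 ± 0.47 (adjusted p = 0.0199) and, as the lower one, crygm2d14 at −0.31. In all, 12.3% of lens genes tested were called, against 17.6% of all genes tested. The crygm2d genes are near-identical copies, so values of single copies are uncertain. Single libraries decided the calls of rgra, rgrb, opn9, lim2.1 and crygm2d14, with highest adjusted p-values of 0.0533 to 0.117 (the largest without cycle replicate 1).

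Pigment cell genes were higher in darkness for 5 of 17 members of the melanophore list and 8 of 21 of the list of the other pigment cells. In melanophores, the black pigment cells, tyrosinase tyr, the first enzyme of melanin synthesis, had 8.18, 11.2, 9.300 and 10.6 FPKM in the dark libraries, against 2.56, 3.38, 2.199 and 2.41 in the cycle libraries, a difference of 1.87 ± 0.16 (adjusted p = 1.14e-04). The melanosome enzyme tyrp1b had 153, 148, 185 and 168 FPKM in darkness and 60.9, 56.2, 67.8 and 60.9 FPKM under the cycle (1.41 ± 0.09, adjusted p = 1.86e-05). Neither gene overlapped between groups. The related tyrp1a (1.17 ± 0.14, adjusted p = 8.31e-04), dct (0.597 ± 0.13, adjusted p = 0.0122) and the melanosome protein pmela (0.85 ± 0.09, adjusted p = 4.16e-04) were higher as well, and pmelb was lower (−0.997 ± 0.25, adjusted p = 0.023). Of 17 melanophore genes, 5 were higher and 1 lower, with a median of 0.51 and a summed level of 347 to 418 FPKM in dark libraries and 189.8 to 229 in cycle libraries. In the list of xanthophores and iridophores, the yellow and reflective pigment cells, 8 of 21 were higher and 1 lower. The pteridine synthesis gene gch2 (chromosome 12, 25085751 to 25092570) had 41.01, 53.1, 63.3 and 41.97 FPKM in the dark libraries, against 7.98, 4.78, 7.07 and 9.99 in the cycle libraries, a difference of 2.75 ± 0.22 (adjusted p = 7.47e-05). The purine synthesis genes gart (0.81), paics (0.81), ppat (0.65) and atic (0.51) were also higher, and the purine enzyme impdh1b was lower (−0.42 ± 0.08, adjusted p = 0.0073). Not every left-out library kept the calls of pmelb, paics and atic, with highest adjusted p-values of 0.056 to 0.0978 (the largest without cycle replicate 1).

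Of 31 genes for hypothalamic peptides and monoamines 6 were lower in darkness, 1 was higher and 24 did not pass. The share called was 22.6%, against 17.6% of all genes tested. The melanin-concentrating hormone gene pmchl, whose hormone in fish pales the skin, had 1.62, 3.61, 2.25 and 4.699 FPKM in the dark libraries, against 32.9, 23.5, 25.3 and 27.2 in the cycle libraries, a log2 difference of −3.22 ± 0.29 (adjusted p = 1.47e-04). Its paralog pmch had 1.31, 0.741, 1.51 and 2.004 FPKM in darkness and 7.16, 6.45, 5.802 and 7.34 FPKM under the cycle (−2.26 ± 0.26, adjusted p = 5.57e-04), and pth2, a brain peptide that in zebrafish responds to the presence of other fish, 0.554, 0.183, 1.78 and 0.496 FPKM in darkness and 5.27, 4.900, 5.303 and 3.56 FPKM under the cycle (−2.83 ± 0.48, adjusted p = 0.00431). The groups lay apart in all of these. The feeding peptide npy (−0.84), uts1 (−0.63) and vip (−0.43) were lower too. The higher member was the dopamine and serotonin synthesis gene ddc (1.11 ± 0.13, adjusted p = 5.29e-04). Without cycle replicate 3 there were 4 lower and 1 higher of these 31 genes, and 3047 of all 18389 genes tested were called. The list is then not set apart from all genes by its share called. Growth hormone gh1 was lower (−0.79 ± 0.10, adjusted p = 0.00112), as was the shared pituitary hormone subunit cga (−2.02 ± 0.49, adjusted p = 0.0204), whereas somatolactin smtlb was higher (2.43 ± 0.55, adjusted p = 0.015). The values of cga and smtlb rest on levels under 3 FPKM, and their sizes were −0.92 and 1.09 with a pseudocount of 1. The list of 33 neuronal genes had 1 higher, slc32a1 (0.28 ± 0.06, adjusted p = 0.0167), and none lower. That is a share of 3.03%, below the 17.6% of all genes tested. The calls of npy, uts1, vip, cga and slc32a1 were lost without single libraries, with highest adjusted p-values of 0.0508 to 0.0836 (the largest without cycle replicate 1). A pseudocount of 1 put pth2 at −1.78.

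In the cell cycle list 22 of 47 genes were higher in darkness, none was lower and 25 did not pass, with a median of 0.51. The licensing subunit mcm3, part of the helicase that opens DNA, had 22.3, 22.8, 21.7 and 21.01 FPKM in the dark libraries, against 5.76, 4.75, 5.93 and 5.28 in the cycle libraries, a difference of 1.999 ± 0.09 (adjusted p = 3.96e-06). The other subunits mcm2, mcm4, mcm5 and mcm6 gave 1.95, 2.09, 2.15 and 1.98, and mcm7 gave 1.12. Thymidylate synthase tyms (2.296), the loading factor cdc6 (1.597) and the sliding clamp pcna (1.35) were also higher. Genes of mitosis that did not pass were top2a (0.11 ± 0.15, adjusted p = 0.659) and the cyclin ccnb1 (−0.05 ± 0.19, adjusted p = 0.886). The ribonucleotide reductase gene rrm2 is listed under 2 identifiers. The first, on chromosome 20, had 13.4, 16.1, 7.36 and 9.696 FPKM in darkness and 0.113, 0.151, 0 and 1.598 FPKM under the cycle (5.19 ± 0.74, adjusted p = 0.00173), while the one on chromosome 19 averaged 21.98 FPKM in darkness and 18 FPKM under the cycle and did not pass, and fragments may have been divided between such copies. Histone genes had none of 16 higher and 5 lower, h1fx (−0.93 ± 0.11, adjusted p = 7.85e-04), histh1l (−1.18), h2afx1 (−0.95), h1f0 (−0.52) and 1 of 2 entries named h3f3b.1, and without cycle replicate 3 there were 3 higher and 5 lower. With a pseudocount of 1 the log2 difference was smaller, with cdc6 at 0.86 and rrm2 at 3.17.

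**Figure D3:**
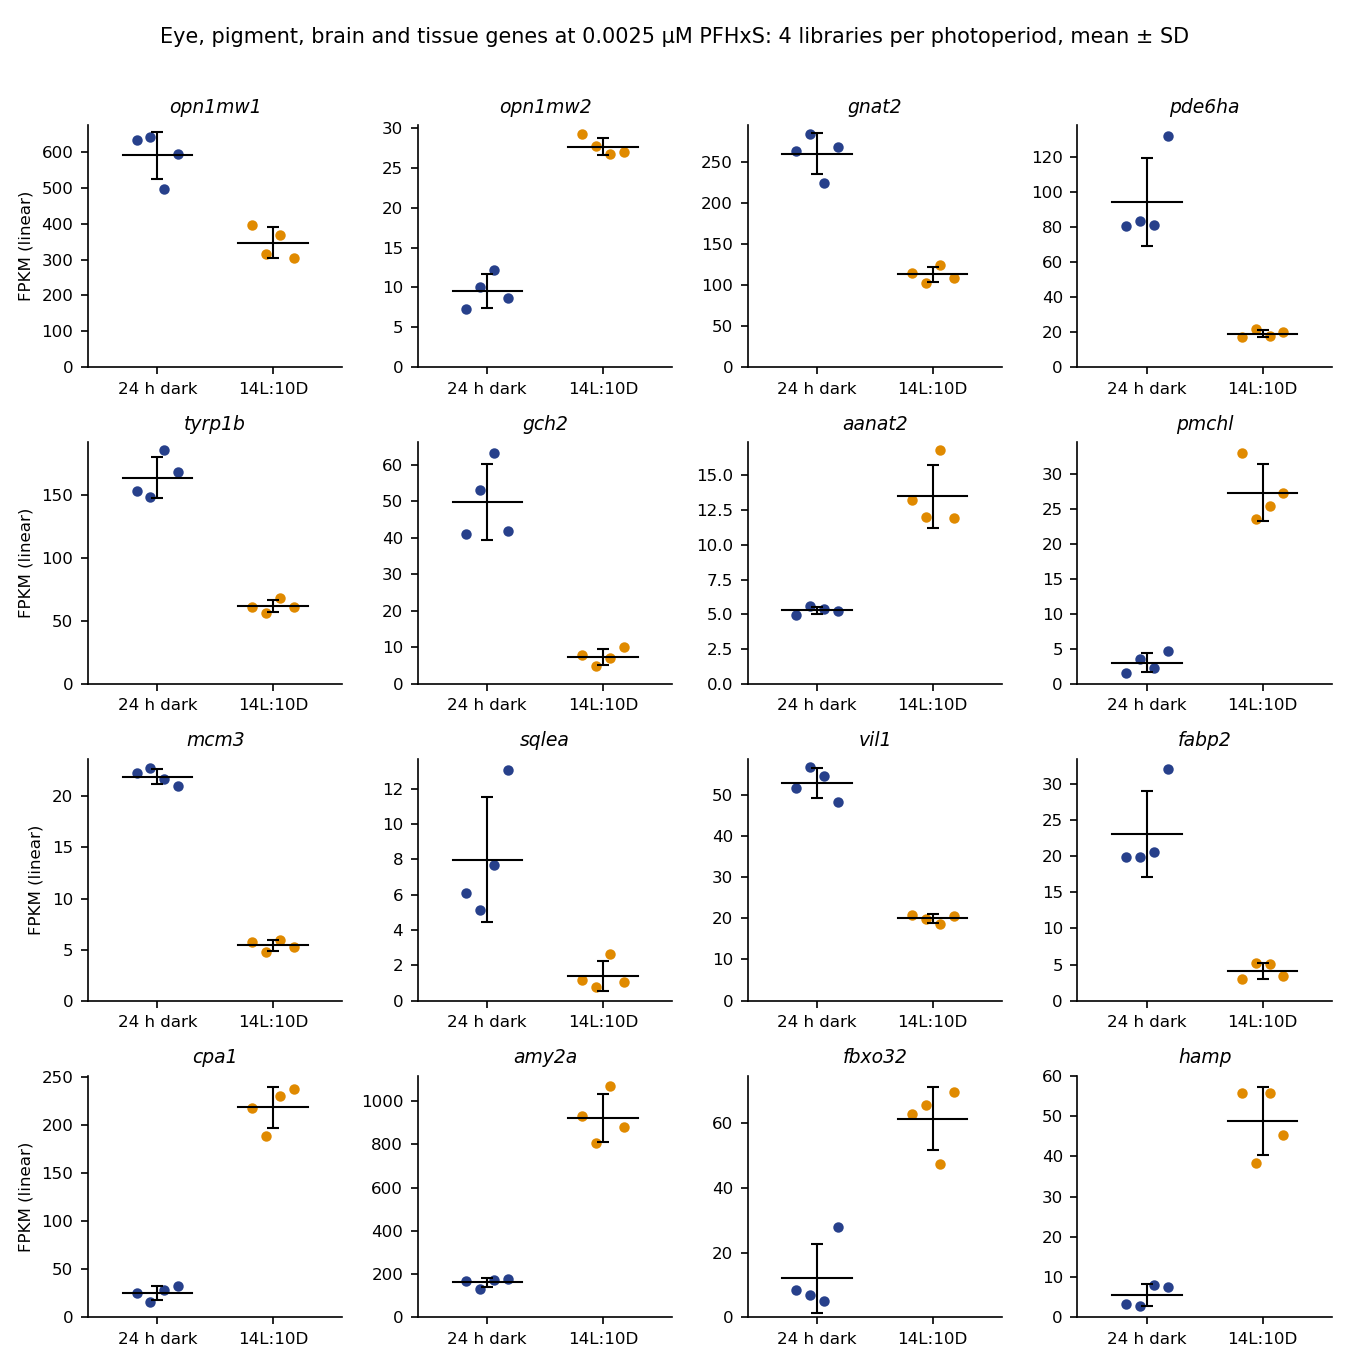
FPKM (vertical linear axes from 0) of 16 eye, pigment, brain and other tissue genes in the 4 dark and 4 cycle libraries at 0.0025 µM PFHxS. Points are libraries, the bar is the mean and the error bar the SD. The groups do not overlap in any panel, with opn1mw2, aanat2, pmchl, cpa1, amy2a, fbxo32 and hamp lower in darkness. All genes shown were picked from those called, so the lack of overlap is no separate result. Over all genes tested the groups did not overlap for 23.4%.

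Cholesterol synthesis had the largest share of higher genes of the 49 lists. Of 24 genes, 18 were higher, 1 was lower and 5 did not pass, with a median of 1.002. Squalene epoxidase sqlea, an early step in the sterol branch, had 6.11, 5.13, 7.66 and 13.1 FPKM in the dark libraries, against 1.15, 0.756, 2.63 and 1.08 in the cycle libraries, a difference of 2.48 ± 0.38 (adjusted p = 0.00266). The sterol enzymes cyp51 (2.35 ± 0.29, adjusted p = 8.84e-04) and lss (2.32 ± 0.32, adjusted p = 0.00156) were also higher. The rate-limiting hmgcra gave 1.73 ± 0.27 (adjusted p = 0.00276) and the upstream hmgcs1 1.23 ± 0.12 (adjusted p = 2.24e-04). The low density lipoprotein receptor ldlra was the member that was lower (−0.36 ± 0.09, adjusted p = 0.0248). Left out in turn, single libraries decided the call of ldlra, which was lost without cycle replicate 4 (adjusted p = 0.0665) and without 4 of the other libraries. Smaller differences were found with a pseudocount of 1, with lss at 1.54.

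Intestinal genes were higher for 19 of 34 and lower for 1, the chitinase chia.2 (−0.46), with a median of 0.52. Villin vil1, an actin bundler of the brush border, had 51.7, 56.8, 54.5 and 48.2 FPKM in the dark libraries, against 20.9, 19.8, 18.6 and 20.5 in the cycle libraries and a difference of 1.398 ± 0.07 (adjusted p = 8.43e-06). Intestinal fatty acid binding protein fabp2 had 19.9, 19.8, 20.6 and 32.03 FPKM in darkness and 2.97, 5.21, 5.03 and 3.38 FPKM under the cycle (2.46 ± 0.22, adjusted p = 1.49e-04), and lactase lct gave 1.81 ± 0.17 (adjusted p = 2.17e-04). The dark and cycle libraries did not overlap in these genes. The list summed to 2451 to 2684 FPKM in dark libraries and 1757 to 2326 in cycle libraries. The fatty acid transporter cd36 was higher by 1.95 ± 0.09 (adjusted p = 3.96e-06), and the peroxisomal thiolase acaa1 by 2.09 ± 0.12 (adjusted p = 1.10e-05). The uncoupling protein ucp1 was lower, with 103, 88.4, 87.4 and 125 FPKM in darkness and 270.3, 301, 255 and 286 FPKM under the cycle (−1.47 ± 0.12, adjusted p = 7.02e-05). These 3 genes belong to the fat oxidation list, of which 11 of 40 were higher and 4 lower, with a median of 0.02. The other lower members were lipoprotein lipase lpl (−0.46, adjusted p = 0.0541 with all 24 libraries in the fit), the pyruvate dehydrogenase kinase pdk2a (−1.01) and fabp10a (−0.38). The call of fabp10a was lost without cycle replicate 4 (adjusted p = 0.0775) and without 5 of the other libraries.

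The exocrine pancreas makes the digestive enzymes of the gut. None of its 21 genes was higher in darkness and 7 were lower, with a median of −0.35. Carboxypeptidase cpa1 (chromosome 25, 18448186 to 18454016) had 25.4, 15.5, 28.95 and 32.29 FPKM in the dark libraries, against 217, 189, 230.4 and 237 in the cycle libraries, a difference of −3.14 ± 0.20 (adjusted p = 2.03e-05). Amylase amy2a had 168, 129.8, 173 and 179 FPKM in darkness and 932, 807, 1070.3 and 880.2 FPKM under the cycle (−2.51 ± 0.12, adjusted p = 4.64e-06). Both differed by more than 4-fold between the nearest libraries of the groups. The other members that were lower, cel.1 (−1.08), cpa5 (−0.87), prss1 (−0.42), ela3l (−0.41) and ctrl (−0.35), differed by less. The summed level of the list was 10527 to 13155 FPKM in dark libraries and 14657 to 19032 in cycle libraries. The calls of prss1, ela3l and ctrl were lost without single libraries, with highest adjusted p-values of 0.0552 to 0.087 (the largest without cycle replicate 1).

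Detoxification genes showed rises of single cytochrome P450, sulfotransferase and transporter genes. Of 73 xenobiotic metabolism genes, 26 were higher and 8 lower, with a median of 0.13. The sulfotransferase sult1st2 had 13.7, 12.3, 15.8 and 9.97 FPKM in the dark libraries, against 0.797, 0.975, 1.13 and 1.34 in the cycle libraries, a difference of 3.49 ± 0.19 (adjusted p = 8.43e-06). The drug efflux transporter abcb4 gave 1.66 ± 0.08 (adjusted p = 5.88e-06), and the cytochromes cyp2ad2 2.33 ± 0.15 (adjusted p = 1.92e-05) and cyp2p8 1.44 ± 0.08 (adjusted p = 1.05e-05). The cytochrome cyp2k6 was lower (−1.71 ± 0.39, adjusted p = 0.016), while another entry of that name missed the expression rule, at 0 to 0.0616 FPKM. Among 30 NRF2 targets of the oxidative stress response, 10 were higher, led by the glutathione transferase gstp2 (2.503 ± 0.17, adjusted p = 3.26e-05), and 4 lower, haem oxygenase hmox1a (−1.14 ± 0.15, adjusted p = 0.00111), sqstm1 (−0.895), the glutathione peroxidase gpx4a (−0.95) and catalase cat (−0.43). The call of cyp2k6 was lost without cycle replicate 2 (adjusted p = 0.0544). A pseudocount of 1 put cyp2k6 at −0.58.

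In the lists of liver and immune genes, members were lower more often than higher. Of 35 hepatocyte genes, 10 were lower and 2 higher, fga (0.42) and apobb.1 (0.36), with leg1.2 at −1.72 ± 0.28 (adjusted p = 0.00369) and the tyrosine catabolic enzyme hpda at −1.08 ± 0.15 (adjusted p = 0.00138). Cholesterol 7-alpha-hydroxylase cyp7a1, the rate-limiting enzyme of bile acid synthesis, gave −0.45 ± 0.07 (adjusted p = 0.0035). The iron hormone hamp, made in the liver, had 3.37, 2.86, 8.13 and 7.61 FPKM in the dark libraries, against 55.8, 38.4, 55.7 and 45.5 in the cycle libraries, a difference of −3.26 ± 0.33 (adjusted p = 2.76e-04). In the complement and immune list 11 of 45 were lower and 1 higher, complement c3a.3 (1.18), with the acute phase gene crp2 at −1.92 ± 0.35 (adjusted p = 0.00604) and the neutrophil oxidase subunit ncf1 at −1.099 ± 0.20 (adjusted p = 0.0062). Another entry named crp2 missed the expression rule, at 0 to 0.888 FPKM. Outside the lists, the immune genes cd180 (−3.32 ± 0.46, adjusted p = 0.00153), the class II histocompatibility gene mhc2dab (−2.91 ± 0.22, adjusted p = 5.08e-05) and the macrophage factor spic (−2.82 ± 0.28, adjusted p = 2.57e-04) were among the 15 largest falls. Picked as falls, these genes and il22ra2 could only be lower and add nothing to the list counts. The soluble interleukin 22 receptor il22ra2 had 1 fragment in all dark libraries and 106 in the cycle libraries, a depth-adjusted ratio of cycle to darkness of 76.9 (95% exact interval 13.5 to 3067, counting error only). Not every left-out library kept the calls of fga and apobb.1, with highest adjusted p-values of 0.0598 to 0.081 (the largest without cycle replicate 1). With a pseudocount of 1 the log2 difference was smaller, with cd180 at −1.86, mhc2dab at −1.89, spic at −1.703 and il22ra2 at −1.62.

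Stress and chaperone genes moved both ways. In the heat shock list 12 of 31 were higher and 2 lower (hspb11 and hspb15), with the transcription factor hsf2 at 1.65 ± 0.14 (adjusted p = 1.06e-04) and the mitochondrial chaperones hspd1 and hspe1 at 1.02 and 1.12. In the unfolded protein list 11 of 27 were higher and 3 lower (trib3, ddit4 and ddit3), and the endoplasmic reticulum chaperone hspa5 had 194, 222, 188 and 188 FPKM in darkness and 65.7, 63.2, 105 and 112 FPKM under the cycle (1.24 ± 0.19, adjusted p = 0.00246). The p53 list had 11 of 26 lower and 1 higher, bcl2l1 (0.59 ± 0.10, adjusted p = 0.00375), and without cycle replicate 3 there were 8 and 1. The cell cycle inhibitor cdkn1a had 41.1, 36.03, 42.1 and 30.4 FPKM in the dark libraries, against 103, 72.9, 76.6 and 102 in the cycle libraries, a difference of −1.23 ± 0.14 (adjusted p = 6.49e-04). Of 20 glucocorticoid axis and target genes 8 were lower, with sgk1 at −0.92 ± 0.18 (adjusted p = 0.00846) and tat at −1.58 ± 0.33 (adjusted p = 0.0105), and 1 was higher, the gluconeogenic pck1 (0.99 ± 0.17, adjusted p = 0.00466). Immediate early genes had 5 of 28 lower, klf2a (−1.73), fosl1a (−1.25), btg2 (−0.88), egr3 (−0.78) and ier2a (−0.600). The higher ones were ier5 (1.33) and ier5l (1.298), and without cycle replicate 3 there were 2 in each direction. With all 8 libraries 25% of this list was called. Over all genes tested the share was 17.6%, with 9.17% higher and 8.45% lower. The hypoxia list had 6 of 28 lower, with ndrg1b at −2.72 ± 0.11 (adjusted p = 1.81e-06). It had 4 higher, the glucose transporter slc2a1a (1.26), hexokinase hk1 (0.96), epas1a (0.68) and hif1aa (0.46). The calls of trib3, ddit4, ddit3, klf2a, fosl1a, btg2, egr3, ier2a, ier5, ier5l and hif1aa were lost without single libraries, with highest adjusted p-values of 0.0671 to 0.114 (the largest without dark replicate 2). Smaller differences were found with a pseudocount of 1, with ier5 at 0.84, ier5l at 0.65 and slc2a1a at 0.83.

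Of 43 muscle genes, 14 were lower and 4 higher, the creatine kinase ckma (1.01), myha (0.76), myhb (0.39) and 1 of 2 entries named actc1a (0.72), with a median of −0.14. The other actc1a entry was lower, at −2.29. The ubiquitin ligase fbxo32, a marker of muscle protein breakdown, had 8.55, 6.93, 5.09 and 28.02 FPKM in the dark libraries, against 62.7, 65.8, 47.4 and 69.8 in the cycle libraries, a difference of −2.65 ± 0.44 (adjusted p = 0.00376), and dark replicate 4 stood above the other dark libraries. The fast myosin myhz1.3 gave −0.603 ± 0.08 (adjusted p = 9.71e-04). Of 30 epidermal genes 9 were lower and 1 higher, evplb (0.44), and the lower ones included the keratins krt91 (−1.11 ± 0.12, adjusted p = 3.63e-04) and krt15 (−1.04 ± 0.14, adjusted p = 0.00122). Of 35 matrix, cartilage and bone genes 14 were higher and none lower, with col11a2 at 0.74 ± 0.09 (adjusted p = 6.10e-04) and matn1 at 0.71 ± 0.13 (adjusted p = 0.0062). Ionocyte and kidney transporters had 10 of 30 higher and none lower, led by the calcium channel trpv6 (2.41 ± 0.18, adjusted p = 5.19e-05) and the phosphate transporter slc34a1a (2.09 ± 0.31, adjusted p = 0.00201). Single libraries decided the calls of ckma, myha and evplb, with highest adjusted p-values of 0.0529 to 0.0821 (the largest without cycle replicate 1). A pseudocount of 1 put slc34a1a at 1.25.

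The spliceosome list had 24 of 58 higher and 1 lower, sf3b1 (−0.298), with a median of 0.32, and snrpb gave 0.67 ± 0.10 (adjusted p = 0.00194). Nuclear genes of oxidative phosphorylation had 28 of 89 higher and 1 lower, cox4i2 (−0.82), with a median of 0.26, and 38 higher without cycle replicate 3. The ATP synthase subunit atp5mc1 gave 0.67 ± 0.11 (adjusted p = 0.00375). The mitochondrial ribosome list had 16 of 69 higher and 1 lower, mrps22 (−0.54). Mitochondrially encoded transcripts had 3 of 13 higher, mt-nd1 (0.399 ± 0.08, adjusted p = 0.0105), mt-nd3 (0.38) and mt-nd5 (0.27), while cytosolic ribosomal genes had 7 of 80 higher and 3 lower (rps27l, rpl4 and rps8a), or 7 and 0 without cycle replicate 3, and a median of −0.07. The proteasome had 2 of 44 higher, psmd8 (0.24) and psmb6 (0.34), and 1 lower, psmb12 (−1.18), against 6 and 0 without cycle replicate 3. Shares called were 6.82% for the proteasome and 12.5% for cytosolic ribosomal genes, below the 17.6% of all genes tested. Glycolysis and glucose genes had 16 of 49 higher and 5 lower, with gpib at 1.64 ± 0.20 (adjusted p = 8.05e-04) and, among the lower ones, foxo1a (−1.04), igfbp1a (−0.82), pfkma (−0.42) and gapdh (−0.35). With total fragments as the scale in place of median ratios, the median of all genes tested stood at 0.05, and 2093 genes were higher and 1349 lower, and the small medians of these lists move with that scale. Not every left-out library kept the calls of sf3b1, mrps22, mt-nd3, mt-nd5, rps27l, rpl4, rps8a, psmd8, psmb6, psmb12 and igfbp1a, with highest adjusted p-values of 0.0507 to 0.125 (the largest without cycle replicate 1).

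**Figure D4:**
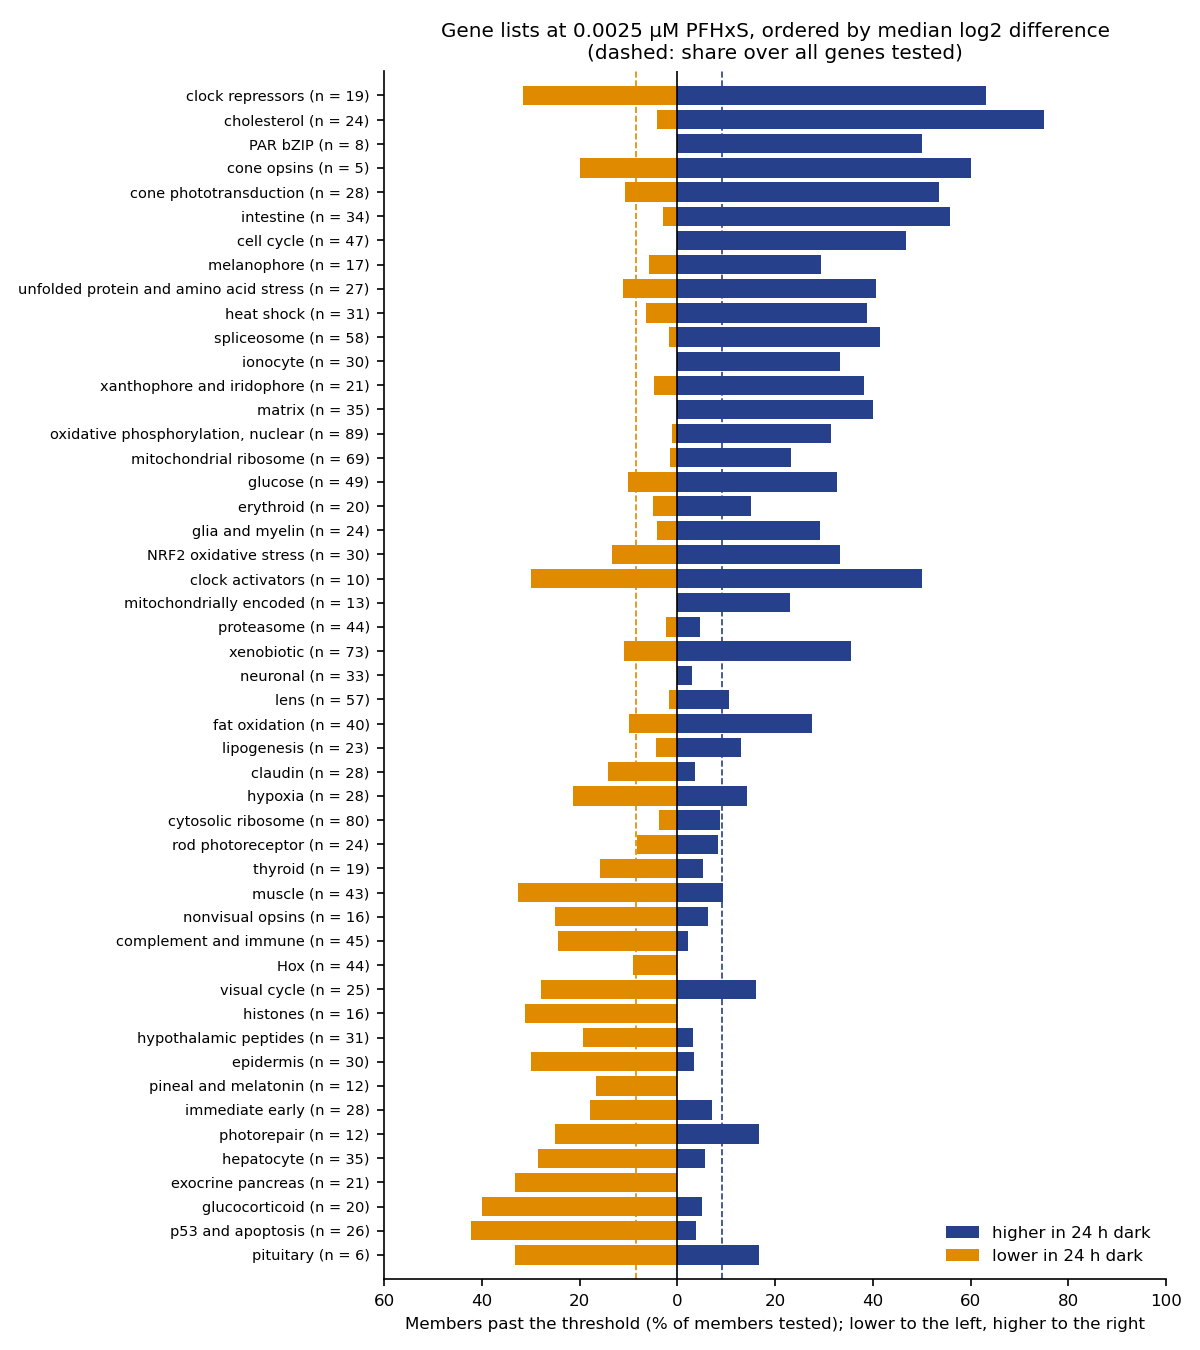
Share of members tested that passed the threshold in each of 49 gene lists at 0.0025 µM PFHxS, higher in darkness to the right (blue) and lower to the left (orange), ordered from top to bottom by median log2 difference. Dashed lines mark the shares over all genes tested, 9.17% higher and 8.45% lower, and the cholesterol list reaches 18 of 24 higher.

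Glia and myelin genes had 7 of 24 higher and 1 lower, rlbp1a (−0.42). In the red blood cell list the haem synthesis genes cpox (0.89), urod (0.84) and hmbsb (0.73) were the 3 of 20 that were higher, and uros (−0.91), of the same pathway, was the 1 that was lower. In the fat synthesis list elovl2 (1.51), mttp (0.64) and agpat2 (0.44) were the 3 of 23 that were higher and scdb (−0.25) was lower. The claudins, proteins of tight junctions, had 1 of 28 higher, cldn15la (0.97), and 4 lower, cldnb (−0.73), cldn15a (−0.47), cldnh (−0.400) and cldn5b (−0.34), against 2 lower without cycle replicate 3. Of 44 Hox genes none was higher and 4 were lower, hoxa13b (−0.81), hoxd11a (−0.61), hoxb5a (−0.37) and hoxd3a (−0.32). Called genes made up 17.9% of claudins, 9.09% of Hox genes, 17.4% of the fat synthesis list and 20% of the red blood cell list. Over all genes tested the share was 17.6%. Among glial genes the glutamate transporter slc1a2a had 11.2, 13.1, 11.8 and 13.7 FPKM in the dark libraries, against 0.908, 0.925, 0.406 and 0.577 in the cycle libraries, a difference of 4.02 ± 0.23 (adjusted p = 1.10e-05). The thyroid hormone precursor tg was lower (−1.56 ± 0.19, adjusted p = 7.00e-04), as was the deiodinase dio3b, which inactivates thyroid hormone (−0.74 ± 0.16, adjusted p = 0.0138). Of 19 thyroid axis genes, IYD (−0.67) was the third that was lower and the transporter slc16a10 (0.28) the 1 that was higher. The share called in this list was 21.1%. The calls of rlbp1a, hmbsb, scdb, cldn15a, cldn5b, hoxd11a, hoxb5a, hoxd3a, IYD and slc16a10 were lost without single libraries, with highest adjusted p-values of 0.0797 to 0.126 (the largest without dark replicate 2).

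Outside the lists the largest rise was slc1a8b, a glutamate transporter gene (chromosome 2, 37110504 to 37122351). It had 6.61, 7.22, 4.84 and 6.84 FPKM in darkness and 0.104, 0, 0 and 0.0982 FPKM under the cycle, a difference of 5.497 ± 0.33 (adjusted p = 1.38e-05), or 2.80 with a pseudocount of 1. The GABA receptor subunit gabrr1 gave 3.904 ± 0.29 (adjusted p = 5.33e-05), the deubiquitinase usp21 3.74 ± 0.41 (adjusted p = 4.14e-04), the phosphatase ppm1na 3.403 ± 0.25 (adjusted p = 4.77e-05) and the kinase anchor akap12b 3.72 ± 0.64 (adjusted p = 0.0044). The hatching enzyme he1.1 had 8.38, 7.396, 6.53 and 1.83 FPKM in darkness and 0.348, 0.348, 0 and 0 FPKM under the cycle (4.66 ± 0.67, adjusted p = 0.00181), with dark replicate 4 below the other dark libraries. Of these genes, slc1a8b, usp21, ppm1na and he1.1 met the minimum of 0.5 FPKM through the dark libraries only, as did per3 and cipca above. The gene il22ra2 met it through the cycle libraries only. Such genes entered the comparison through the group in which they were high, so their p-values are descriptive. Among the 15 largest falls were the lipocalin genes apoda.2 and ptgdsb.1. Of these, apoda.2 had 146, 119, 124 and 137 FPKM in the dark libraries, against 1041, 955, 1234 and 1009 in the cycle libraries (−3.01 ± 0.10, adjusted p = 3.46e-07). The value for ptgdsb.1 was −2.79 ± 0.15 (adjusted p = 8.03e-06). Further large falls were the caspase-like caspbl (−3.87 ± 0.67, adjusted p = 0.00458), the granulin grn2 (−2.94 ± 0.28, adjusted p = 2.22e-04) and the immunoglobulin domain gene dicp3.3 (−2.88 ± 0.31, adjusted p = 4.21e-04). The microRNA precursor dre-mir-133a-1 was counted with 1 fragment in darkness and 12 under the cycle, a depth-adjusted ratio of cycle to darkness of 8.71 (95% exact interval 1.29 to 372). Its call was lost with limma-voom on recovered fragments (−1.93, adjusted p = 0.103). With a pseudocount of 1 the log2 difference was smaller, with gabrr1 at 2.46, usp21 at 2.13, ppm1na at 1.67, akap12b at 2.02, he1.1 at 2.46, caspbl at −2.301 and dre-mir-133a-1 at −1.53.

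By class of gene, 9.40% of 17591 protein-coding genes were higher and 8.46% lower. Of 305 long intergenic RNA genes, 17 were higher and 37 lower, and of 45 microRNA genes none was higher and 5 lower. None of 35 small nucleolar RNA genes passed. The share called grew with level: in the lowest of 4 equal bins of mean FPKM 3.65% were higher and 4.18% lower, and in the highest bin 15.5% and 13.5%. Across 4 bins of gene length between 7.64% and 10.5% were higher. Among chromosomes the share of higher genes ran between 7.06% on chromosome 22 and 12.8% on chromosome 20. At the edge of the expression minimum, 583 genes reached 0.5 FPKM in exactly 4 libraries (median mean level 0.546 FPKM) and 651 in exactly 3 (0.453 FPKM), and 41 and 71 of the 583 did so in the dark or the cycle libraries only.

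The same photoperiod contrast was available in larvae with DMSO alone, where 3948 of the genes passed (21.5%), and in larvae at 25 µM, where 4218 passed (22.9%). Both counts come from the fit of all 24 libraries, in which 4038 genes passed at 0.0025 µM. The 3239 genes come from the fit of 8 libraries, so they are not on a par with these counts, and the overlaps below mix both fits. The contrasts with DMSO alone and at 25 µM share no library with the one at 0.0025 µM, and they share its division into 2 library series. Of the 3239 genes called at 0.0025 µM, 3117 (96.2%) had the same sign with DMSO alone and 1938 were called there in the same direction, which is 59.8% of the genes called at 0.0025 µM and 49.1% of those called with DMSO. With 25 µM, 2794 (86.3%) had the same sign. Across all genes tested, the log2 differences at 0.0025 µM and with DMSO correlated with r = 0.70, a description over 18389 genes that are not independent.

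The difference between these photoperiod differences was tested in a fit of all 24 libraries, in which the offset between library series cancels if it is the same at each dose. Between 0.0025 µM and DMSO, 1 gene passed (0.00544%), and 1504 of the 18389 genes tested had an unadjusted p under 0.05. The count was 0 with a pseudocount of 1 and with limma-voom, and 10 without cycle replicate 3 at 0.0025 µM. The gene, LO018432.1, was named with its value known. It was listed at 0 in all dark DMSO libraries and averaged 1.76 FPKM in dark and 2.23 FPKM in cycle larvae at 0.0025 µM. Its difference, darkness minus cycle, was more positive at 0.0025 µM than with DMSO. The 8 named genes with the smallest p did not pass, with azin1b at −1.44 ± 0.25 (adjusted p = 0.0852) and snrnp40 at 0.72 ± 0.14 (adjusted p = 0.138) the first of them. No clock gene passed either. The photoperiod difference of per1b was 4.82 at 0.0025 µM and 5.13 with DMSO, a difference of −0.31 ± 0.18 (adjusted p = 0.652). For bhlhe40 the values were 3.92 and 4.095 (−0.17 ± 0.31, adjusted p = 0.914), and for cry3b −3.76 and −3.703 (−0.06 ± 0.13, adjusted p = 0.934). The output factors dbpa (−0.48 ± 0.17, adjusted p = 0.482) and tefa (−0.64 ± 0.20, adjusted p = 0.45) did not pass either.

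Between 0.0025 µM and 25 µM, 367 genes passed (2%), of which 139 had the more positive value at 0.0025 µM (0.756%) and 228 the more negative (1.24%). With total fragments as the scale 495 passed and 58.6% of them had the more positive value at 0.0025 µM, against 37.9% on the scale used here, so that the balance of directions depends on the scale. The count was 134 with the 16 libraries of these groups alone, 768 without replicate 1 in darkness at 25 µM and 971 without replicate 4 under the cycle at 25 µM. The nuclear receptor gene nr4a3, an immediate early gene, gave a photoperiod difference of 0.07 ± 0.14 at 0.0025 µM and 2.01 ± 0.14 at 25 µM, a difference of −1.94 ± 0.19 (adjusted p = 2.29e-05). The muscle kinase alpk2 gave −1.06 ± 0.15 and 0.84 ± 0.15 (−1.91 ± 0.21, adjusted p = 5.79e-05), and dio3b −0.74 ± 0.20 and 1.22 ± 0.20 (−1.96 ± 0.28, adjusted p = 9.65e-04). In the last 2 genes the sign of the photoperiod difference was opposite at the 2 doses. The same held for tat, a glucocorticoid-responsive liver enzyme (−1.58 ± 0.32 and 1.43 ± 0.32), and for the liver enzyme agxta (−0.54 ± 0.09 and 0.397 ± 0.09).

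Of the 49 lists the cell cycle genes had the most members, 11 of 47, in which the photoperiod difference at 0.0025 µM differed from that at 25 µM. Over all genes tested the share was 2%, or 367 of 18389. The medians of the cell cycle list were 0.51 at 0.0025 µM, −0.05 with DMSO and −0.37 at 25 µM. Between 0.0025 µM and DMSO, 0 of the 47 members passed the test of the difference. For mcm3 the photoperiod difference was 1.99 at 0.0025 µM and 0.72 at 25 µM (adjusted p of the difference 0.0448), and for mcm4 it was 2.09 and 0.77 (adjusted p = 0.0157). Glucose genes had 10 of 49 members past this test and immediate early genes 6 of 28. Of the pigment genes, 1 of 17 in the melanophore list and 2 of 21 in the other list passed. Counts this small do not set these lists apart from all genes. Among the pigment genes that passed, gch2 gave 2.75 at 0.0025 µM and 0.94 at 25 µM, and tyrp1b 1.404 and 0.62. Their differences were 1.801 ± 0.30 (adjusted p = 0.0031) and 0.78 ± 0.14 (adjusted p = 0.00664). For opn1mw2 the values were −1.55 and 0.297 (adjusted p of the difference 0.00784), for pmchl −3.22 and −1.05 (0.0224), and for tg −1.56 and −0.08 (0.0122). Of the clock repressor list 1 of 19 genes differed between these doses, cry3b, with −3.76 and −3.25 (adjusted p = 0.0361). A single gene does not set that list apart either.

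**Figure D5:**
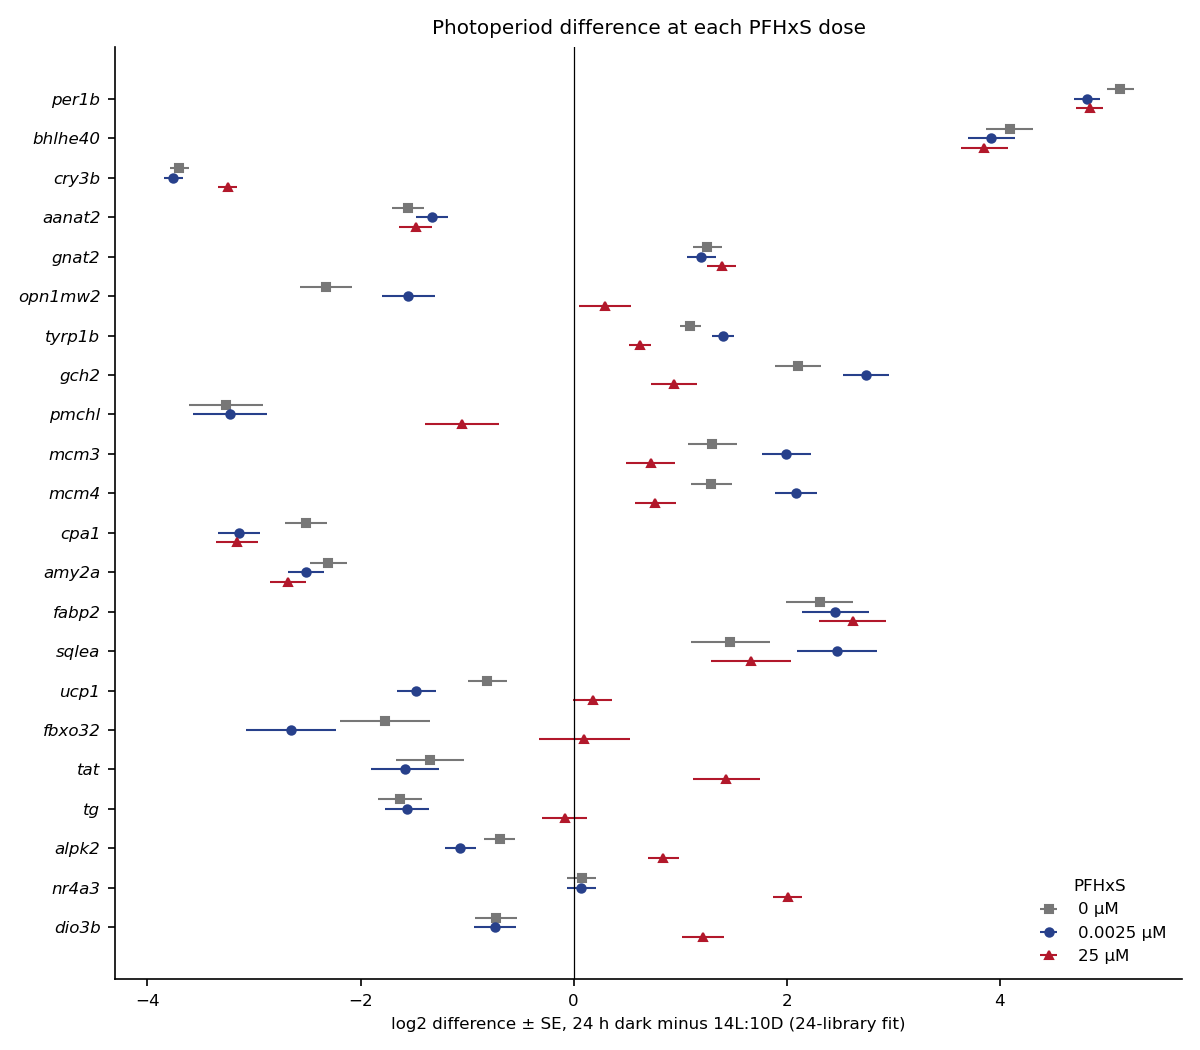
Log2 difference, 24 h dark minus 14L:10D (horizontal axis, ± SE from the fit of 24 libraries), of 22 genes at 0 µM (DMSO, squares), 0.0025 µM (circles) and 25 µM PFHxS (triangles). The clock genes per1b and bhlhe40 lie above 0 and cry3b below 0 at the 3 doses, while tat, alpk2 and dio3b are below 0 at 0.0025 µM and above 0 at 25 µM.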

How the data were processed

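RNA from whole larvae was sequenced as paired-end libraries. Per the submitters' processing notes, the tools were HISAT2 2.0.5 and featureCounts 1.5.0-p3, and the authors deposited FPKM values per gene in 2 tables, 1 for each library series. Coordinates are those of the deposited tables. Their genome build is not given in the sources used here. The labels' protocols describe directional and non-directional kits without assigning them, so that overlapping genes on opposite strands may share fragments. Near-identical copies may share fragments as well.

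The deposited FPKM tables were joined on the gene identifier. Values were rescaled between libraries by median ratios (factors 0.990 to 1.016), and log2(FPKM + 0.1) was compared with limma 3.58.1 in R 4.3.3 (trend, Benjamini-Hochberg adjustment over 18389 genes, threshold 0.05). Only the 8 libraries at 0.0025 µM entered that fit, and the dose comparison used all 24. Whole fragments were recovered from 100% of deposited values within a tolerance of 0.001, and limma-voom on them was an alternative. Intervals for fragment ratios cover counting error only. Scripts were tested on simulated data. Replicate numbers are shared between groups but same-numbered libraries did not deviate together.

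The comparison and the 49 gene lists were chosen with earlier results of these data known. Named genes were the 15 largest rises and the 15 largest falls among called genes with a mean of at least 1 FPKM and groups that did not overlap, up to 5 members per list by adjusted p, 10 fixed clock, pineal and opsin genes, and 8 genes by p for each difference between doses. Other genes, such as the remaining clock repressors, cipca, mcm7, pcna, top2a and members of lists with 5 or fewer calls in a direction, were chosen after their values were seen. Some genes that this rule takes in are not reported here.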

Additional observations from a re-analysis of the deposited data

Results flagged for a closer look

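A library lying far from the other 3 of its group marked 36 of 522 gene and group combinations (6.897%, Dixon critical value 0.829). Chance marks about 1 in 20. Dark replicate 1 was the highest: chia.2 had 322 FPKM (235 to 248 in the other 3). Dark replicate 2 was the highest: rlbp1a had 19.5 FPKM (15.7 to 16.4 in the other 3). Dark replicate 2 was the lowest: arntl1a had 10.99 FPKM (14.2 to 14.4 in the other 3). Dark replicate 3 was the highest: evplb had 55.4 FPKM (42.6 to 43.6 in the other 3) and paics had 53.96 FPKM (43.9 to 45.1 in the other 3). Dark replicate 3 was the lowest: opn1sw1 had 1118 FPKM (1389 to 1443 in the other 3) and sagb had 24.6 FPKM (35.04 to 35.7 in the other 3). Dark replicate 4 was the highest: cldnb had 133 FPKM (91.4 to 95.1 in the other 3), cry4 had 23.99 FPKM (19.4 to 19.5 in the other 3) and dre-mir-133a-1 had 0.979 FPKM (0 in the other 3). Dark replicate 4 was also high: fabp2 had 32.03 FPKM (19.8 to 20.6 in the other 3), fbxo32 had 28.02 FPKM (5.09 to 8.55 in the other 3) and hif1al had 72.5 FPKM (55.6 to 58.1 in the other 3). Dark replicate 4 was also high: igfbp1a had 56.3 FPKM (32.7 to 36.5 in the other 3), il22ra2 had 0.0973 FPKM (0 in the other 3) and nr4a3 had 9.61 FPKM (7.703 to 7.98 in the other 3). Dark replicate 4 was also high: pde6ha had 132 FPKM (80.2 to 83.1 in the other 3) and rdh8b had 13.5 FPKM (9.15 to 9.603 in the other 3). Cycle replicate 1 was the highest: hoxd11a had 7.99 FPKM (6.84 to 7.02 in the other 3) and hsf2 had 5.77 FPKM (4.57 to 4.74 in the other 3). Cycle replicate 1 was the lowest: agxta had 26.5 FPKM (31.2 to 32.03 in the other 3) and ldlra had 16.4 FPKM (17.96 to 18.2 in the other 3). Cycle replicate 2 was the highest: hoxa13b had 4.88 FPKM (3.71 to 3.88 in the other 3). Cycle replicate 2 was the lowest: caspbl had 3.25 FPKM (7.18 to 7.501 in the other 3), hspd1 had 25.1 FPKM (31.6 to 32.9 in the other 3) and myhz1.1 had 1671 FPKM (1987 to 1996 in the other 3). Cycle replicate 3 was the highest: arntl1a had 25.99 FPKM (21.9 to 22.6 in the other 3), csnk1da had 50.9 FPKM (46.5 to 46.9 in the other 3) and gabrr1 had 0.659 FPKM (0.239 to 0.281 in the other 3). Cycle replicate 3 was also high: slc34a1a had 1.17 FPKM (0.421 to 0.4997 in the other 3). Cycle replicate 3 was the lowest: nr1d4b had 30.01 FPKM (60.03 to 64.3 in the other 3). Cycle replicate 4 was the highest: akap12b had 1.46 FPKM (0.0614 to 0.212 in the other 3), paics had 43.6 FPKM (21.3 to 24.1 in the other 3) and rrm2 had 1.598 FPKM (0 to 0.151 in the other 3). Cycle replicate 4 was the lowest: col11a2 had 27.9 FPKM (33.1 to 34.1 in the other 3) and cyp2ad2 had 5.19 FPKM (7.99 to 8.31 in the other 3).

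For 35 of the 261 genes named, the photoperiod difference at 0.0025 µM differed from that at 25 µM in the fit of 24 libraries (limma, adjusted p under 0.05), against 2% of all genes tested. The named genes include 8 chosen by their p in this very test and others chosen with their values known, so their share is no measure of the rest. The values that follow are the difference at 0.0025 µM minus that at 25 µM, in log2 units, with the 2 photoperiod differences in the same order in brackets. Both photoperiod differences passed the threshold on their own, with opposite signs, for alpk2 at −1.91 (−1.06 and 0.84), agxta at −0.94 (−0.54 and 0.397), dio3b at −1.96 (−0.74 and 1.22) and tat at −3.01 (−1.58 and 1.43). Further genes were hif1al at −0.805 (−0.404 and 0.400), hspb11 at −1.57 (−0.72 and 0.85), igfbp1a at −1.78 (−0.83 and 0.95) and uts1 at −1.26 (−0.63 and 0.63). For uts1 the difference at 0.0025 µM passed in the fit of 8 libraries but not in that of 24 (limma, adjusted p = 0.0511). Both photoperiod differences passed with the same sign for gch2 at 1.801 (2.75 and 0.94), tyrp1b at 0.78 (1.404 and 0.62), cldn15la at 0.64 (0.97 and 0.33) and mcm4 at 1.32 (2.09 and 0.77). Further genes were pmchl at −2.18 (−3.22 and −1.05), apoda.2 at 0.81 (−3.01 and −3.82), mcm7 at 0.701 (1.11 and 0.41) and cry3b at −0.51 (−3.76 and −3.25). Next came mcm3 at 1.27 (1.99 and 0.72). The difference at 0.0025 µM passed and that at 25 µM did not for ucp1 at −1.65 (−1.48 and 0.18), opn1mw2 at −1.85 (−1.55 and 0.297), tg at −1.48 (−1.56 and −0.08) and sgk1 at −1.31 (−0.93 and 0.38). Further genes were snrnp40 at 0.63 (0.61 and −0.02), h1fx at −0.996 (−0.94 and 0.06), fbxo32 at −2.75 (−2.65 and 0.101) and mt-nd1 at 0.48 (0.39 and −0.08). Next came hpda at −0.94 (−1.08 and −0.14), mt-nd5 at 0.46 (0.27 and −0.19), pfkma at −0.68 (−0.43 and 0.25) and hamp at −2.25 (−3.26 and −1.02). Then followed npy at −1.08 (−0.84 and 0.24), pcna at 1.23 (1.35 and 0.12), he1.1 at 4.75 (4.65 and −0.097) and gapdh at −0.38 (−0.35 and 0.03). The reverse held for nr4a3 at −1.94 (0.07 and 2.01) and azin1b at −1.03 (−0.35 and 0.68).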

How the results depend on the processing

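Without cycle replicate 1 the genes lower in darkness numbered 1027, and without cycle replicate 4 they numbered 1014. Over all 8 left-out libraries the called genes ranged between 2282 and 3047, the higher ones between 1268 and 1732 and the lower ones between 1014 and 1444. Against a fold threshold of 1.2 the counts were 1152 in all, 633 higher and 519 lower. Deposited FPKM without rescaling gave 3187, total fragments 3442, a pseudocount of 1 gave 3375, no expression minimum 2984, a minimum of 2 FPKM 3116, limma-voom 3534, all 24 libraries 4038 and fragments thinned to equal depth, added after seeing the data, 3154. Of the 261 genes named, none changed direction between the main fit and a setting where either of these called it. Changes of sign in genes that neither called were not counted. Calls were lost for 94 against the fold threshold, 27 without an expression minimum, 16 with all 24 libraries and 11 with total fragments. Thinning lost 9, limma-voom 8, no rescaling 7 and the minimum of 2 FPKM 1 of the 249 that reached it. With single libraries left out in turn, 66 of 257 named symbols lost their call at least once. The replicate number as a block gave 2591 genes, 1373 higher and 1218 lower, with 31 of the named calls lost. Correlations of same-numbered libraries, as deviations from their group means, were −0.0139, 0.0546, −0.124 and 0.00973, none of them the best match of a dark library. No pairing by number was seen, and these values cannot show whether libraries shared a clutch.

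For 0.0025 µM minus DMSO the count was 2 with total fragments, 2 with the 16 libraries of the groups, 0 with a pseudocount of 1 and 0 with limma-voom. It was 1 with the replicate block and 1 to 10 over left-out libraries, with 10 without cycle replicate 3 at 0.0025 µM. For 0.0025 µM minus 25 µM the counts were 42 against a fold threshold of 1.2, 134 with 16 libraries and 288 with the replicate block. Left-out libraries gave 184 to 971, with 649 without cycle replicate 3 at 0.0025 µM. Called genes were more frequent at high levels and differences of genes with one group near 0 FPKM shrank with a pseudocount of 1, rrm2 to 3.17 and caspbl to −2.30.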
